A study of Mus musculus with 19 samples.

Results

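Timm9 and 9 other genes of protein import into the mitochondrial inner membrane (Timm10, Timm8a1, Timm8b, Timm13, Timm22, Timm23, Timm17a, Timm44 and Timm50) were followed through 4 sorted populations of mouse CD4 T cells. The members were the probes whose gene name in the array files equals one of these 10 symbols, which gave 17 of the 55681 probes on the array. Timm9 was picked because its signal had been seen to follow the Foxp3 reporter, so its levels are given as a description with no test. The other 9 were picked by name, as its partners in the same import route.

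The T cells were taken from spleens and lymph nodes; the mice were adult females on the C57Bl/6 background and all of them carried the same pair of transgenes, labelled Tg IL-2-GFP x FOXP3mRFP. Green fluorescence reports Il2 and red fluorescence reports Foxp3, the lineage factor of regulatory T cells (Treg). The groups were GFP+RFP+ cells (4 arrays, replicates 1, 3, 4 and 5), GFP+RFP- cells (5 arrays), GFP-RFP+ cells (5 arrays) and GFP-RFP- cells (5 arrays), with no treatment or time course. The subtype label names RFP+ cells regulatory, while the cell type label calls all samples conventional, and the groups here follow the reporters. The labels do not say how many mice stand behind a sample or whether cells were pooled, so a p-value covers only how far these samples scatter, which can be technical scatter. In sorted bulk RNA, fewer cells with a transcript and less of it per cell cannot be told apart.

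Nearly all mitochondrial proteins are made in the cytosol and imported. They cross the outer membrane through the TOM complex, after which the small TIM chaperones (Timm9 with Timm10, Timm8a1 or Timm8b with Timm13) escort hydrophobic precursors through the intermembrane space. The TIM22 complex inserts metabolite carriers into the inner membrane, and the TIM23 complex passes proteins with a presequence into the matrix with the help of Timm44 and its motor. The small TIM proteins are recognised by pairs of cysteines at a fixed spacing.

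Probes of 3 small TIM genes are shown. The array sees each gene only through its probes, and probes of small TIM genes can carry the cysteine codons. Capitals mark the triplets TGC and TGT with 9 bases between them, the Timm8a1 probe having no such pair. The letters are the designed probes of the array, 5′ to 3′ on the strand named with each position, and positions are those of the files (mm9). The Timm9 probe A_51_P421804 lies at chr12:72226471-72226530 on the minus strand, the Timm8b probe A_52_P520397 at chr9:50413114-50413173 on the plus strand and the Timm8a1 probe A_55_P1964302 at chrX:131072684-131072743 on the minus strand.
Timm9: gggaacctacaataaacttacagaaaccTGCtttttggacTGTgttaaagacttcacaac
Timm8b: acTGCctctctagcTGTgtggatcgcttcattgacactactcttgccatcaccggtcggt
Timm8a1: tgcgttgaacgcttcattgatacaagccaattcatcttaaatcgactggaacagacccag
The letters TGCNNNNNNNNNTGT were searched in every probe on both strands. They occur on the given strand in 3 of the 17 import probes (Timm9, Timm13 and Timm8b) and on the other strand in 1 (Timm22), against 1.70% of all probes on the given strand and 3.19% on either strand. The reading frame was not checked, and a match describes these letters only.

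Some features of the arrays touch every value below. A probe is called detected where the scanner software marked it well above background. The share of probes detected was 26.1% to 38.0% on GFP+RFP+ arrays, 30.2% to 41.0% on GFP+RFP- arrays, 22.0% to 39.4% on GFP-RFP+ arrays and 37.8% to 44.9% on GFP-RFP- arrays, so the RFP+ groups had fewer probes detected on average. The sorted cells were checked against markers. Cd4 was detected on all 19 arrays, and so was Foxp3, whose log2 difference was 2.55 ± 1.10 (SE) between GFP-RFP+ and GFP-RFP- cells (limma, adjusted p = 0.187) and 1.51 ± 1.17 between GFP+RFP+ and GFP+RFP- cells (adjusted p = 0.521). Neither Foxp3 difference passed the threshold. Gpr83, a receptor enriched on Treg, did pass between GFP-RFP+ and GFP-RFP- cells (6.82 ± 1.47, adjusted p = 0.0331), but between GFP+RFP+ and GFP+RFP- cells it had -1.28 ± 1.56 (adjusted p = 0.707). It was detected on no GFP-RFP- and no GFP+RFP+ array, so the size of either difference was not resolved. Il2ra, also among the 5 Treg markers used, was detected on 2 of 4 GFP+RFP+ arrays and on 1 of 5 in each other group. Of the 5 markers, 2 to 4 were detected per GFP+RFP+ sample and 2 to 5 per GFP+RFP- sample. Per GFP-RFP+ sample it was 1 to 5, and per GFP-RFP- sample 2 to 4.

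By its brightest probe, A_51_P421804, Timm9 was detected in all RFP- samples and in none of the RFP+ samples, a split that its other probe, described further on, did not share. Probe A_51_P421804 had processed intensities of 6.75, 3.59, 2.74 and 2.80 in the GFP+RFP+ samples, against 600.2, 393, 1143, 1282 and 1296 in the GFP+RFP- samples. In the cells without the IL-2 reporter it had 4.68, 3.39, 5.25, 3.06 and 3.56 in the GFP-RFP+ samples, against 599, 938, 300.5, 640.2 and 775 in the GFP-RFP- samples. No RFP+ sample came near any RFP- sample, with or without the IL-2 reporter. The probe was well above background on 0 of 9 RFP+ arrays and on 10 of 10 RFP- arrays.

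These RFP+ values, 2.74 to 6.75, lay below what the arrays could resolve, since the dimmest probe called well above background had an intensity of 12.9 to 31.2 on GFP+RFP+ arrays and 14.0 to 24.9 on GFP-RFP+ arrays. They are therefore only bounds. Levels between arrays are given as the log2 relative signal, the log2 intensity minus that array's 75th percentile over the 6610 probes detected on all 19 arrays. On this scale the same Timm9 probe averaged -10.46 ± 0.82 in GFP+RFP+ cells and -3.87 ± 1.08 in GFP+RFP- cells (SD, n = 4 and 5), and -10.70 ± 0.62 in GFP-RFP+ cells and -4.60 ± 0.73 in GFP-RFP- cells (SD, n = 5 each). With the dim group held at the higher of its own signal and the dimmest detected signal of each array, its signal was at least 20.6-fold lower in GFP+RFP+ than in GFP+RFP- cells and at least 14.9-fold lower in GFP-RFP+ than in GFP-RFP- cells. These folds are bounds under this scaling only. With another background correction (normexp, offset 50) the log2 differences were smaller, at -2.69 with GFP and -2.29 without it. Neighbours in the order of levels (GFP+RFP- and GFP-RFP-, then GFP+RFP+ and GFP-RFP+) overlapped in their samples.

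**Figure D1:**
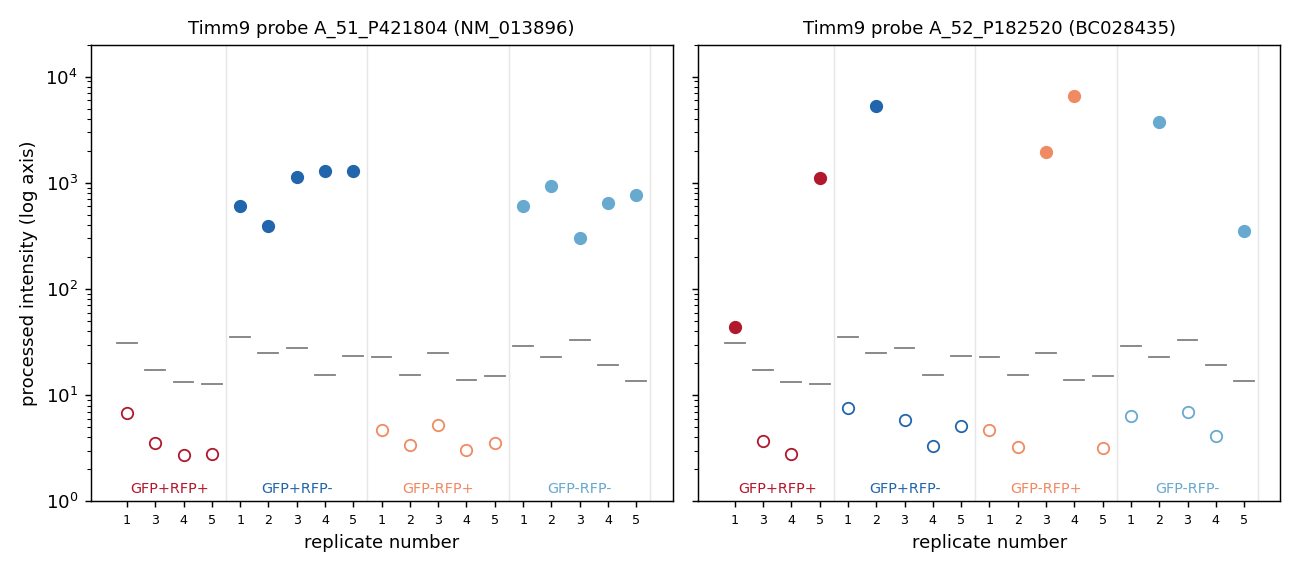
Processed intensity (log axis) of the 2 Timm9 probes on each array, by group and replicate; filled points are well above background, open points are not, and the grey dash is the dimmest intensity called well above background on that array. Probe A_51_P421804 (left) is filled on all 10 RFP- arrays and open on all 9 RFP+ arrays, while probe A_52_P182520 (right) is filled on 7 arrays spread over the 4 groups.

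Array brightness moved with the RFP reporter, and its part in the Timm9 pattern was not tested beyond the fits given here. The 75th percentile intensity ran from 3828 to 11715 over the RFP+ arrays and from 7780 to 17264 over the RFP- arrays. The 2 ranges overlapped through GFP-RFP+ replicate 3 on the RFP+ side, and through GFP+RFP- replicate 4 and GFP-RFP- replicate 5 on the RFP- side. GFP-RFP+ replicate 3 had 39.4% of probes detected and a 75th percentile of 11715, and its Timm9 intensity was 5.25. GFP+RFP- replicate 4 had 30.2% of probes detected and a 75th percentile of 7780, and its Timm9 intensity was 1282. For GFP-RFP- replicate 5 these were 44.9%, 11650 and 775. When each array's percent detected was added to the fit, the Timm9 difference was -6.84 in GFP+RFP+ against GFP+RFP- cells and -6.67 without GFP, compared with -6.60 and -6.10 otherwise. Within the 3 slides it was -5.92, -6.92 and -7.71 comparing GFP+RFP+ with GFP+RFP- cells, and -5.29, -5.83 and -7.24 comparing GFP-RFP+ with GFP-RFP- cells. Slide 1 held 2 arrays of each group. In slides 2 and 3 each comparison had a group with 1 array, and -7.71 rests on 1 array against 1.

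Detection on every RFP- array and on no RFP+ array was found for 2 of all 55681 probes (0.00359%), those of Timm9 and of Rnf2, an E3 ligase of Polycomb complex 1, which was looked up only after its values were seen. The reverse, detection on every RFP+ array and on no RFP- array, was found for 0 probes. Within a single comparison the pattern was less rare. It held for 127 probes (0.228%) in GFP+RFP+ against GFP+RFP- cells and for 257 probes (0.462%) in GFP-RFP+ against GFP-RFP- cells. Because Timm9 was chosen for this pattern, these counts describe how the probes fall and test nothing.

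The other Timm9 probe did not share the split. Probe A_52_P182520, which stands for the cDNA BC028435 and lies at chr12:72236700-72236759, 10169 bases from the main probe, was detected in 4 of the 9 RFP+ samples and 3 of the 10 RFP- samples, with at least 1 in every group. Its intensities ran from 2.77 to 6635 over the RFP+ arrays and from 3.32 to 5320.3 over the RFP- arrays. Its log2 difference was 1.60 ± 2.83 (SE) in GFP+RFP+ against GFP+RFP- cells (adjusted p = 0.816) and 1.46 ± 2.67 comparing GFP-RFP+ with GFP-RFP- cells (adjusted p = 0.789), in a limma fit to every probe on its own. The split was seen with the NM_013896 probe alone, and averaging both probes gave Timm9 differences of -2.50 with GFP and -2.32 without it.

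Markers of other cell types are given here because a B cell marker passed in 1 of the 2 RFP comparisons, and their part in the Timm9 pattern was not tested. Cd79b, a chain of the B cell receptor, differed by -6.34 ± 1.51 (SE, log2) in GFP-RFP+ against GFP-RFP- cells (adjusted p = 0.0429), and by -6.03 ± 1.60 between GFP+RFP+ and GFP+RFP- cells (adjusted p = 0.105). Cd79a, its partner chain, had -1.26 ± 1.91 without GFP (adjusted p = 0.734) and -1.68 ± 2.03 with it (adjusted p = 0.705). Of the 3 B cell markers used (Cd79a, Cd79b and Ms4a1), 0 or 1 was detected per GFP+RFP+ sample, 1 or 2 per GFP+RFP- sample, 0 to 2 per GFP-RFP+ sample and 1 to 3 per GFP-RFP- sample. Their summed relative signal (linear, 1 being the array's 75th percentile) ran from 0.00162 to 0.00716 in GFP+RFP+, 0.0241 to 1.42 in GFP+RFP-, 0.00328 to 0.508 in GFP-RFP+ and 0.105 to 0.899 in GFP-RFP- samples. Cd79a was on no GFP+RFP+ array, and Ms4a1 was on no array of the GFP+RFP+, GFP+RFP- and GFP-RFP+ groups. Of 4 myeloid and dendritic markers 2 or 3 were detected in every sample, Itgax in none, and their summed relative signal ran from 12.0 to 26.2 in GFP+RFP+, 6.65 to 12.6 in GFP+RFP-, 8.09 to 23.9 in GFP-RFP+ and 6.03 to 8.06 in GFP-RFP- samples.

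Among the 9 other members, 1 passed the test in GFP-RFP+ against GFP-RFP- cells and 0 passed in GFP+RFP+ against GFP+RFP- cells. Over the 20613 genes tested by limma, 1.23% were called lower and 0.471% higher in the comparison without the IL-2 reporter (1.7% in all), and 0.116% and 0.0873% in the comparison with it (0.204% in all). The threshold for a call was 0.05 on the p adjusted over all genes tested. At an unadjusted p under 0.05 there were 3 of 9 members in GFP-RFP+ against GFP-RFP- cells, against 22.6% of all genes, and 2 of 9 in GFP+RFP+ against GFP+RFP- cells, against 17.4% of all genes. The median log2 difference of the 9 was -3.39 without GFP and -1.01 with it, where all genes tested had medians of -0.29 and 0.22. These medians hold for the scaling used above. With the percentile over all probes those of all genes were 1.02 and 0.78, and those of the 9 are not given. Values below background enter the members' differences, so the sizes of their medians were not resolved.

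**Figure D2:**
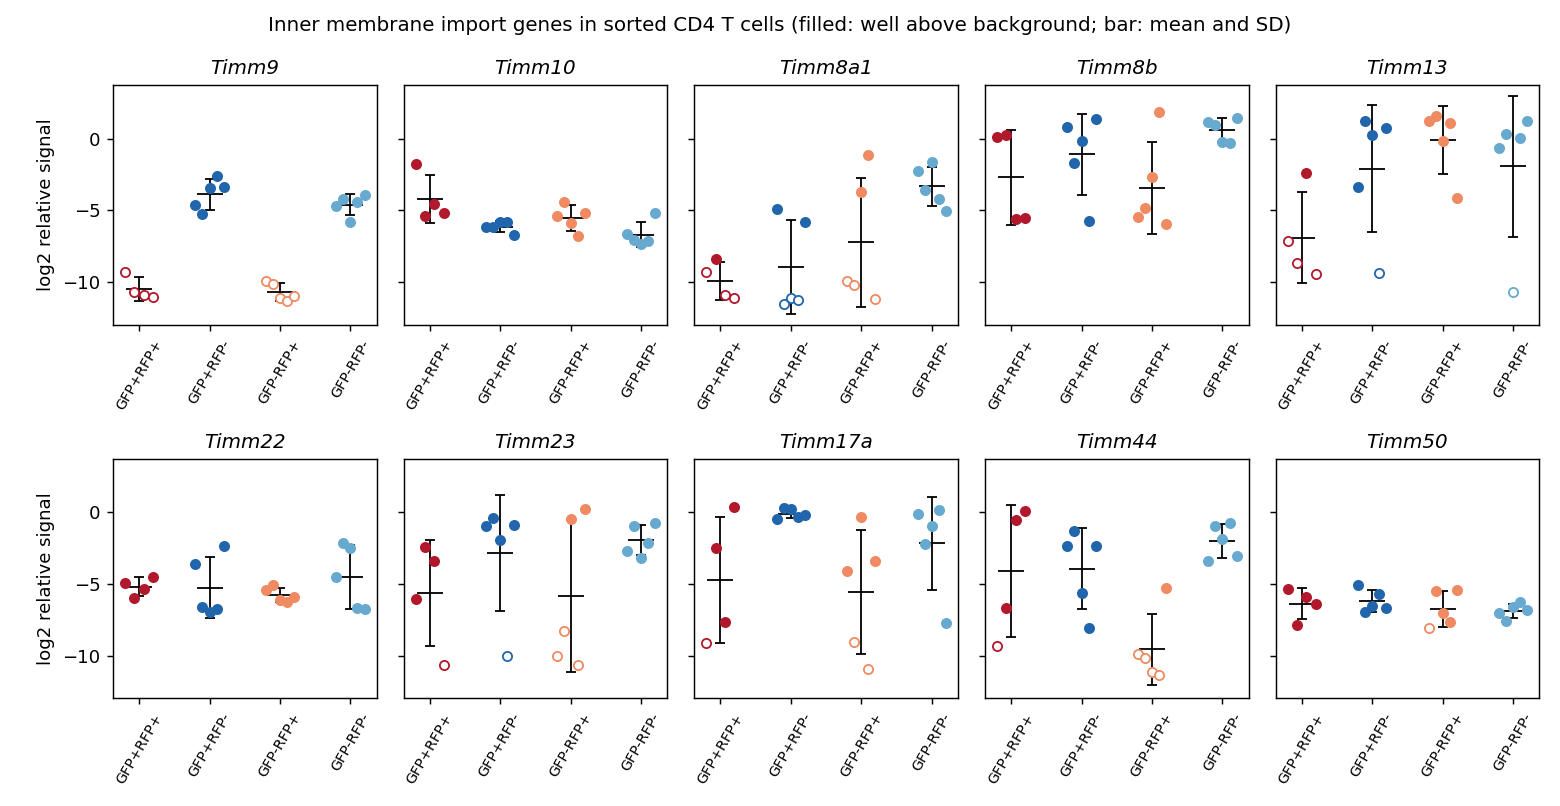
Log2 relative signal of the 10 import genes (1 probe a gene, the brightest) in each sample of the 4 groups; filled points are well above background, open points are not, and the bar is the mean with SD (n = 4 for GFP+RFP+, 5 for the others). Timm9 (probe A_51_P421804, -11.30 to -9.26 in RFP+, -5.80 to -2.60 in RFP- samples) separates the RFP+ from the RFP- groups with no overlap, Timm10 and Timm50 spread less within groups, and Timm13, Timm23 and Timm17a hold bright and dark samples within 1 group.

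By its brightest probe, Timm10, the partner of Timm9 in the hexameric chaperone, was detected in every sample, RFP+ ones included. Probe A_55_P1957003 (chr2:84670299-84670358, plus strand) was well above background on all 19 arrays. Its log2 relative signal was -1.74, -5.38, -4.57 and -5.19 in GFP+RFP+ samples, against -6.19, -6.13, -5.79, -5.80 and -6.74 in GFP+RFP- samples. On this scale the groups did not overlap, a pattern in the higher direction that 6.37% of all genes tested had. Before scaling they did overlap, with processed intensities of 141 to 1243 in GFP+RFP+ and 124 to 227 in GFP+RFP- samples. The 75th percentiles subtracted ran from 4141 to 5966 and from 7780 to 15302. The difference of 1.91 ± 0.70 (SE) did not pass (adjusted p = 0.179), and replicate 1, at -1.74, stood well above the other 3 GFP+RFP+ samples. Without that replicate the difference was 1.08 (adjusted p = 0.431). GFP-RFP+ samples had -5.38, -4.40, -5.89, -6.81 and -5.18, against -6.67, -7.08, -7.36, -7.17 and -5.18 in GFP-RFP- samples. There the groups overlapped and the adjusted p was 0.301. The value depended on the scaling. With the percentile over all probes, quantile normalization and the series table the difference was 2.47, 3.00 and 3.26 (adjusted p = 0.0361, 0.0218 and 0.019), and with the mean of both probes it was -1.51 (adjusted p = 0.543). A second Timm10 probe, A_55_P1957004, starting 102 bases away, was detected on 6 of 19 arrays and on 0 of 5 in the GFP-RFP+ group.

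Timm8b, a chaperone that works with Timm13 beside the Timm9 complex, was detected on all 19 arrays. Its log2 relative signal was -5.45, -4.85, -2.70, 1.83 and -5.97 in GFP-RFP+ samples, against 1.13, 0.96, -0.25, -0.27 and 1.44 in GFP-RFP- samples. Of the 5 GFP-RFP+ samples, 4 lay below all GFP-RFP- samples and replicate 4 lay above them. The difference of -4.03 ± 1.62 (SE) did not pass (adjusted p = 0.163), and without replicate 4 it was -5.34 (adjusted p = 0.0466). In GFP+RFP+ samples Timm8b had 0.09, 0.26, -5.62 and -5.55, against 0.83, -1.72, -0.18, -5.70 and 1.35 in GFP+RFP- samples, which overlapped.

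Timm8a1 is an X-linked chaperone of the same kind whose human counterpart is mutated in a deafness-dystonia syndrome. By its brightest probe, A_55_P1964302, it was detected in every sample of a single group. The log2 relative signal of probe A_55_P1964302 was -4.92, -11.52, -11.11, -11.27 and -5.80 in GFP+RFP- samples, with 2 of 5 detected. GFP-RFP+ samples had -9.94, -10.17, -3.69, -1.16 and -11.18, again with 2 of 5 detected. GFP-RFP- samples had -2.26, -3.55, -1.64, -4.21 and -5.01, all 5 detected, and overlapped both other groups. Of the GFP+RFP+ samples 1 of 4 was detected. The differences did not pass, at -3.90 ± 1.82 (SE) in GFP-RFP+ against GFP-RFP- cells (adjusted p = 0.213) and -5.59 ± 1.82 comparing GFP+RFP- with GFP-RFP- cells (adjusted p = 0.756). A second probe, A_55_P1952744, was detected in 2 of 5 GFP-RFP- and 3 of 5 GFP+RFP- samples. Fitted on its own by limma, it had -0.30 ± 2.58 and 1.35 ± 2.58 in the same 2 comparisons (adjusted p = 0.96 and 0.999).

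Timm13, the partner of the Timm8 proteins, was bright in most samples and dark in a few. Its intensities were 29.1, 14.3, 986 and 8.76 in GFP+RFP+ samples, against 10838, 11309.7, 10397, 16324 and 416 in GFP-RFP+ samples. Detection stood at 1 of 4 and 5 of 5, and the log2 difference of -6.82 ± 2.48 (SE) did not pass (adjusted p = 0.812). Among the RFP- samples, GFP+RFP- replicate 4 (11.8) and GFP-RFP- replicate 3 (10.3) were dark, while the other 8 had 1477 to 35967.

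Timm44, which tethers the import motor to the TIM23 channel, was the member called in GFP-RFP+ against GFP-RFP- cells. Probe A_51_P143470 (chr8:4259739-4259798, minus strand) had intensities of 4.81, 3.40, 5.30, 2.99 and 192 in GFP-RFP+ samples, against 1451, 8981, 4592, 8346 and 1398 in GFP-RFP- samples. It was detected in 1 of 5 and 5 of 5 samples, and the groups did not overlap, a pattern in the lower direction that 2.59% of all genes tested had. By limma, Timm44 fell by 7.55 ± 1.75 (log2, SE), with an adjusted p of 0.0387. Since 4 of the 5 GFP-RFP+ values were not above background, the size of that difference was not resolved. The call was lost in 7 of the 10 fits that left out an array of either group, namely without GFP-RFP+ replicate 1 or 2 or any single GFP-RFP- sample (adjusted p = 0.0617 to 0.0883). It was lost as well with no filter (adjusted p = 0.0501) and with replicate number as a block (adjusted p = 0.0524). The same held when percent detected was a term (-5.14, adjusted p = 0.565) and without the 3 arrays under 30% detected (-6.83, adjusted p = 0.0872). Within slide 1, with 2 arrays of each group, it was also lost (-7.87, adjusted p = 0.15). Slides 2 and 3 had -9.31 and -5.23, but each held 1 array of 1 group and could not decide the call.

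With the IL-2 reporter on, Timm44 showed no such separation. GFP+RFP+ samples had intensities of 6.67, 58.6, 3549 and 6493, against 3022, 6105, 251, 29.9 and 2650.4 in GFP+RFP- samples. Both groups spanned dark and bright samples, and the adjusted p was 0.978. The interaction of the 2 reporters, the difference between the RFP differences with and without GFP, was 7.39 ± 2.55 (SE) for Timm44 and did not pass (adjusted p = 0.999), so the RFP difference was not shown to depend on the IL-2 reporter. Between GFP+RFP+ and GFP-RFP+ cells the Timm44 difference was 5.46 ± 1.85, again short of the threshold (adjusted p = 0.793).

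Timm23, the pore-forming subunit of the presequence translocase, is given by its brightest probe, A_55_P1971194. It was detected in 3 of 4 GFP+RFP+ samples, 4 of 5 GFP+RFP- samples, 2 of 5 GFP-RFP+ samples and 5 of 5 GFP-RFP- samples. In GFP-RFP+ samples its intensities were 4.55, 12.6, 8672, 4.84 and 8620.4, against 2429.9, 8926, 1865, 3155 and 7009 in GFP-RFP- samples. The GFP-RFP+ samples thus held both the darkest and nearly the brightest values, and the difference did not pass (adjusted p = 0.328). A second Timm23 probe, A_55_P2184264, was detected in 3 of 5 GFP-RFP- samples and in 1 sample of each other group.

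By probe A_55_P1956873, Timm17a, which pairs with Timm23 in the channel, was uniformly bright in GFP+RFP- samples. Intensities were 7.63, 1042, 25.6 and 7606 in GFP+RFP+ samples, against 10872, 18893, 14645, 6212 and 11885 in GFP+RFP- samples. The difference of -4.63 ± 2.18 (SE) on the log2 scale did not pass (adjusted p = 0.284). A second Timm17a probe, A_51_P167843, ran from 10.6 to 325 in GFP+RFP- samples, with 3 of 5 detected. Fitted on its own by limma, it had -0.92 ± 1.61 in this comparison (adjusted p = 0.813). Timm50, the receptor that hands presequence proteins to Timm23, kept a log2 relative signal of -7.82 to -5.37 in GFP+RFP+, -6.95 to -5.09 in GFP+RFP-, -8.08 to -5.43 in GFP-RFP+ and -7.55 to -6.27 in GFP-RFP- samples. Timm22, the channel for carrier proteins that Timm9 and Timm10 deliver to, was detected on all 19 arrays by probe A_51_P421984. It had -6.00 to -4.47 in GFP+RFP+, -6.93 to -2.35 in GFP+RFP-, -6.26 to -5.08 in GFP-RFP+ and -6.76 to -2.16 in GFP-RFP- samples. Second probes were detected on 2 of 19 arrays for Timm22 and on 9 of 19 for Timm50. Neither Timm50 nor Timm22 passed in any comparison. Groups that did not overlap were found in GFP-RFP+ against GFP-RFP- cells for 0 of 9 members in the higher direction, against 4.08% of all genes, and with GFP for 0 of 9 in the lower direction, against 1.45%.

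**Figure D3:**
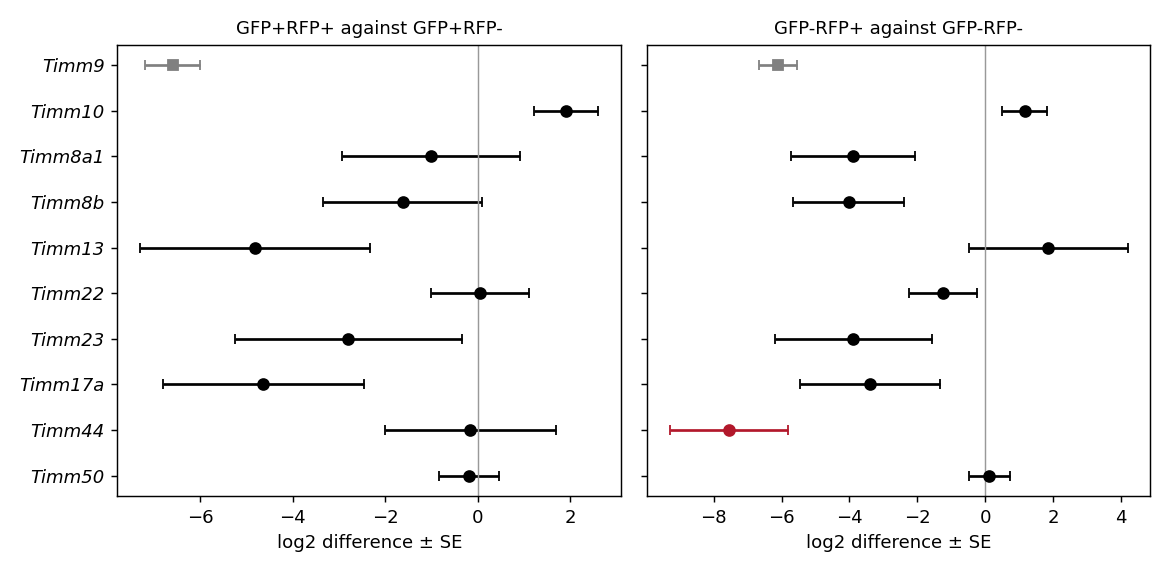
Log2 difference with standard error of each import gene, with GFP+RFP+ set against GFP+RFP- cells on the left and GFP-RFP+ set against GFP-RFP- cells on the right. The grey square is Timm9, not tested, at -6.60 and -6.10; the red point is Timm44, the member called, at -7.55; black points did not pass.

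No member passed in the IL-2 reporter comparisons. Of the 9 members tested, 0 were called in GFP+RFP- against GFP-RFP- cells and 0 comparing GFP+RFP+ with GFP-RFP+ cells by limma, with 1 and 2 at an unadjusted p under 0.05. Over all genes tested, 0.0097% and 0.00485% were called in these comparisons, and 5.15% and 5.41% had an unadjusted p under 0.05. By probe A_51_P421804, Timm9 had mean levels of -3.87 in GFP+RFP- samples and -4.60 in GFP-RFP- samples, while both RFP+ groups were below background. For the interaction of the reporters 0 of 9 members were called, against 0.0097% of all genes, and 1 had an unadjusted p under 0.05, against 4.91%.

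By probe A_51_P421804, Timm9 varied least among the members within groups, although there both its RFP+ groups lay below background, where values differ little. The pooled SD within groups was 0.83 on the log2 scale for Timm9, 0.92 for Timm50, 1.02 for Timm10 and 1.63 for Timm22. It was 2.69 for Timm8b, 2.90 for Timm44, 3.02 for Timm8a1, 3.42 for Timm17a, 3.86 for Timm23 and 3.90 for Timm13. The median of the 20613 genes tested was 1.67, and 80.7% of them had a larger spread than Timm9, but only 6.19% had a larger one than Timm13. No test of this difference was made, since Timm9 was picked for its clean split.

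The members with a wide spread held bright and dark samples side by side. Of the 323 values of the 17 probes, 202 were well above background, with a median intensity of 653, and 121 were not, with a median of 5.68. Replicates of 1 group could differ by 11.91 on the log2 scale (Timm13 in GFP-RFP- cells). Probes of 1 gene often disagreed. In the 7 genes with 2 probes there were 133 pairs of gene and array, in which both probes were detected in 40, neither in 18 and 1 of the 2 in 75 (56.4%), against 39.3% for the 4156 genes of the array with 2 probes that were each detected somewhere. The correlation between the 2 probes of a gene over the 19 arrays ran from -0.25 for Timm9 to 0.30 for Timm50, although the Timm23 probes start 81 bases apart (r = -0.15).

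**Figure D4:**
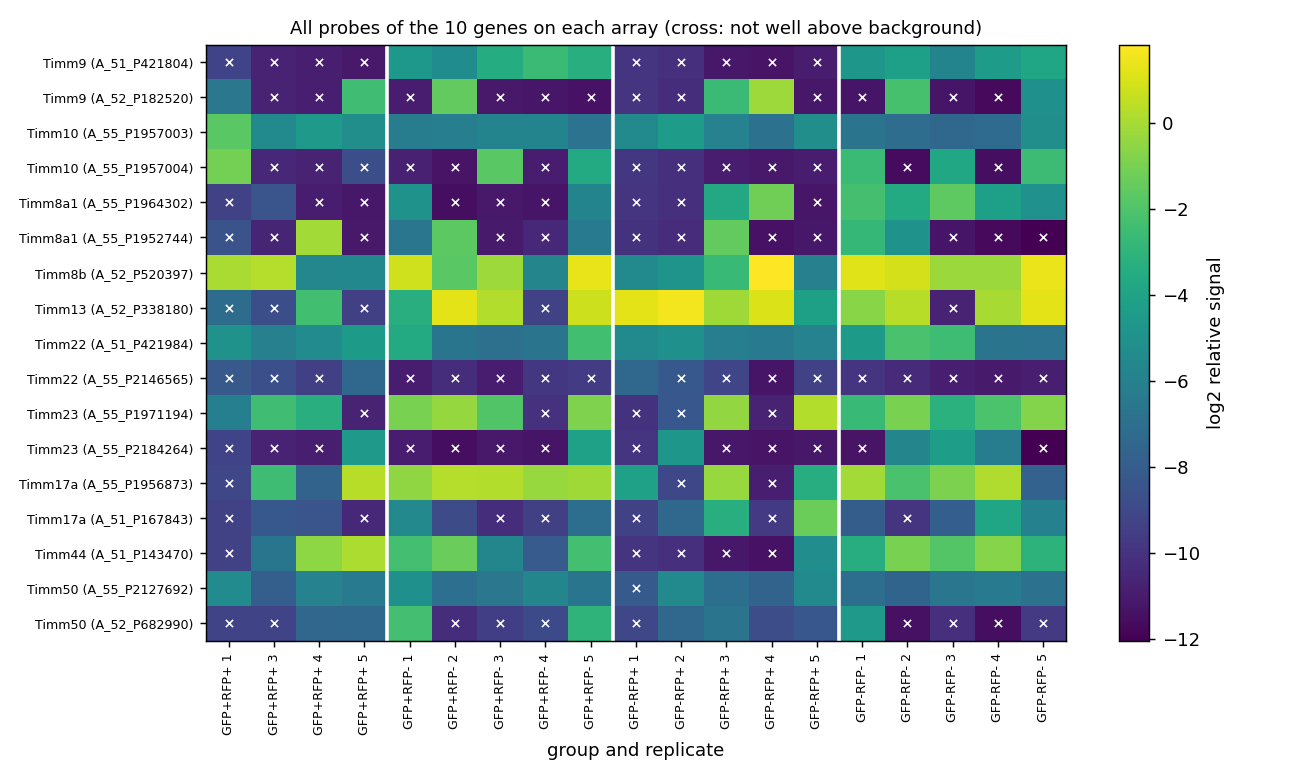
Log2 relative signal of all 17 probes of the 10 genes (rows) on the 19 arrays (columns, by group and replicate); a cross marks a probe not well above background. The first row, Timm9 probe A_51_P421804, is crossed on all 9 RFP+ arrays and on none of the 10 RFP- arrays, while crosses in the other rows fall in every group.

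Fewer of the 10 genes were detected on the arrays with the least detected, though not in strict order, and no test was made. GFP-RFP+ replicate 2, at 31.7% of probes, had 5, while GFP+RFP- replicate 4, at 30.2%, had 7. The count includes Timm9, detected by its main probe on 0 of 9 RFP+ and 10 of 10 RFP- arrays. Timm9 was picked for that split, so part of the gap between RFP+ and RFP- arrays was fixed by the choice. It was 5 to 8 on GFP+RFP+ arrays, 7 to 10 on GFP+RFP- arrays, 5 to 8 on GFP-RFP+ arrays and 9 or 10 on GFP-RFP- arrays. The 3 arrays with under 30% of probes detected, GFP+RFP+ replicate 1 and GFP-RFP+ replicates 1 and 4, had 5, 5 and 6. What the lower detection on RFP+ arrays adds to the members' differences was not tested beyond the fits given with Timm9 and Timm44.

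**Figure D5:**
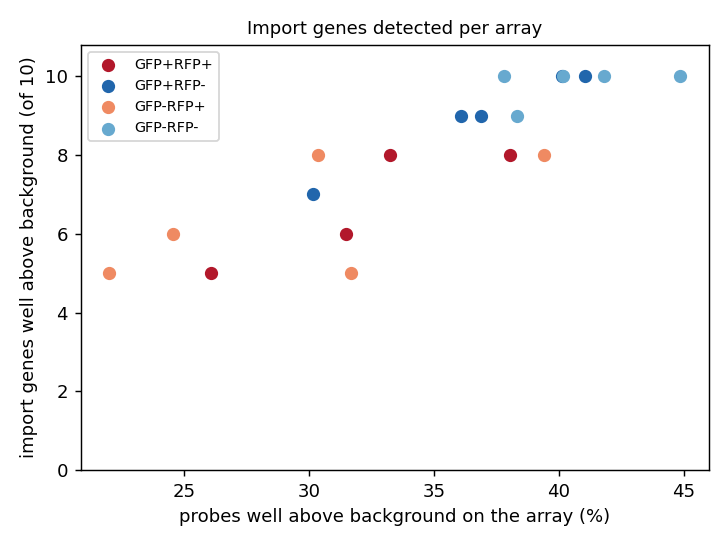
Number of the 10 import genes well above background (vertical) against the percent of all probes well above background (horizontal) for each of the 19 arrays, coloured by group. The arrays with 22.0% to 26.1% of probes detected had 5 or 6 of the genes, and the GFP-RFP- arrays, at 37.8% to 44.9%, had 9 or 10. Timm9, picked for its split by RFP, is counted among the 10.

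Correlations between members were spread around 0. Over the 19 arrays the correlation of Timm9 with the other 9 ran from -0.45 with Timm10 to 0.49 with Timm17a, with a median of 0.20. Among the other 9 it ran from -0.58 to 0.71 over 36 pairs, with a median of 0.04, and the highest value was that of Timm8a1 with Timm8b. These are descriptions over arrays that share groups, slides and brightness.

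Among the tested protein-coding genes with a usual symbol, the 5 whose signal was most like that of Timm9 over the 19 arrays were not import genes. They were Ndufa3, an accessory subunit of respiratory complex I (r = 0.929, rho = 0.868), Azi2, an adaptor of the kinase TBK1 (r = 0.911, rho = 0.902), Pecam1, an adhesion receptor of leukocytes and endothelium (r = 0.911, rho = 0.844), Mex3c, an RNA-binding ubiquitin ligase (r = 0.905, rho = 0.851), and Tspan14, a tetraspanin (r = 0.904, rho = 0.791). The arrays fall into an RFP+ and an RFP- cluster for Timm9, and within the 10 RFP- arrays the same r values were 0.73, 0.39, 0.17, 0.63 and 0.24. Azi2 was detected on none of the 9 RFP+ arrays and on all RFP- arrays but 1. Ndufa3 was detected on all 10 RFP- arrays and also on 3 arrays of each RFP+ group.

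Further genes of mitochondrial import were read from 8 lists of 58 genes, of which 47 were tested. In GFP-RFP+ against GFP-RFP- cells 1 was called lower and 0 higher, against 1.23% and 0.471% of all genes, and 11 had an unadjusted p under 0.05, against 22.6% of all genes, with a median log2 difference of -1.83 and 36 of 47 below 0, where 57.1% of all genes were below 0. In GFP+RFP+ against GFP+RFP- cells 0 were called by limma and 7 of 47 had an unadjusted p under 0.05, against 17.4% of all genes, with a median of -1.44 and 32 of 47 below 0, where 44.1% of all genes were. In both comparisons of GFP+ with GFP- cells, first the RFP- and then the RFP+ ones, 0 were called by limma, with 2 and 1 at an unadjusted p under 0.05 (5.15% and 5.41% of all genes) and medians of -0.06 and 0.29. The medians and shares below 0 given for these lists hold for the scaling used above.

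The gene called was Pmpcb, the catalytic subunit of the matrix protease that removes presequences. It averaged -9.28 ± 2.81 in GFP-RFP+ cells and -0.77 ± 0.87 in GFP-RFP- cells (SD, n = 5 each), was detected in 1 of 5 and 5 of 5 samples, and fell by 8.51 ± 2.09 (log2, SE), with an adjusted p of 0.049 by limma. The call was lost in 13 of the 19 fits that left out 1 array (adjusted p = 0.0521 to 0.107). It was also lost with no filter (adjusted p = 0.0627), with every probe on its own (0.0504) and with replicate number as a block (0.0520). The same held within slide 1 (0.564), with percent detected as a term (-4.27, adjusted p = 0.62) and without arrays under 30% detected (0.122). Slides 2 and 3 had -9.06 and -11.01, but each held 1 array of 1 group and could not decide the call. Its partner Pmpca had -6.57 ± 1.95 (adjusted p = 0.0819), from 2 of 5 against 5 of 5 samples detected. Hspe1, the cochaperonin of Hsp60, had -3.73 ± 1.57 in GFP+RFP+ against GFP+RFP- cells (adjusted p = 0.238).

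Further members of the TIM complexes did not pass, and values given for these and the genes that follow are log2 differences with SE. Timm10b, a small TIM bound to the TIM22 complex, had 2.29 ± 1.00 (SE) in GFP+RFP- against GFP-RFP- cells (adjusted p = 0.969). Timmdc1, a TIM-like protein that serves complex I assembly, had 0.95 ± 0.31 in GFP+RFP+ against GFP+RFP- cells (adjusted p = 0.147), a sign that turned under quantile scaling, in the series table and with the mean of its probes. Romo1, a small subunit of the TIM23 complex, had 1.71 ± 0.72 in GFP-RFP+ against GFP-RFP- cells (adjusted p = 0.178) and was detected in 1 of 5 and 0 of 5 samples. Timm17b, the second form of the Timm17 subunit, had 2.50 ± 1.70 in GFP+RFP+ against GFP-RFP+ cells (adjusted p = 0.929).

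In the import motor, Dnajc19 had 1.06 ± 0.36 (SE) in GFP+RFP+ against GFP+RFP- cells (adjusted p = 0.159), being detected on all arrays of both groups. Grpel1, the nucleotide exchange factor of mitochondrial Hsp70, was detected in 0 of 4 and 3 of 5 samples of that comparison (adjusted p = 0.315). Pam16, a regulator of the motor, had -2.06 ± 1.19 in GFP+RFP- against GFP-RFP- cells (adjusted p = 1.00). None of the 6 motor genes was called in any of the 4 comparisons by limma, with 1 at an unadjusted p under 0.05 in each of the 2 RFP comparisons, where 22.6% of all genes without GFP and 17.4% with it had one.

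At the outer membrane, the TOM receptor Tomm20 had -3.91 ± 1.68 (SE) in GFP+RFP+ against GFP-RFP+ cells (adjusted p = 0.903). The small TOM subunits Tomm6 and Tomm5 had -5.23 ± 2.30 in GFP+RFP+ against GFP+RFP- cells (adjusted p = 0.255) and -4.31 ± 2.01 comparing GFP-RFP+ with GFP-RFP- cells (adjusted p = 0.213). Of the sorting and assembly machinery, Mtx2 had -5.97 ± 1.92 in GFP-RFP+ against GFP-RFP- cells (adjusted p = 0.0974), Samm50, its channel, had -4.62 ± 2.28 in GFP+RFP+ against GFP+RFP- cells (adjusted p = 0.304), and Mtx3 had 2.57 ± 1.77 in GFP-RFP+ against GFP-RFP- cells (adjusted p = 0.403). Chchd4, the oxidoreductase that forms the disulfides of small TIM proteins, was detected in 0 of 5 GFP-RFP+ and 2 of 5 GFP-RFP- samples (adjusted p = 0.513).

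The list of metabolite carriers, a family that includes the main cargo of TIM22, gave 0 calls among 19 tested of 23 in all 4 comparisons by limma. The number at an unadjusted p under 0.05 was 4 in GFP-RFP+ against GFP-RFP- cells and 3 with GFP, against 22.6% and 17.4% of all genes. In the comparisons by the IL-2 reporter it was 1 among RFP- and 0 among RFP+ cells. Their median log2 difference was -2.28 without and -1.51 with GFP in the comparisons by RFP. Slc25a17, a peroxisomal member of the family that is counted in the list, had -4.75 ± 1.28 (SE) in GFP+RFP+ against GFP+RFP- cells (adjusted p = 0.11). Slc25a20, the carnitine-acylcarnitine carrier, had -4.92 ± 1.60 in GFP-RFP+ against GFP-RFP- cells (adjusted p = 0.101). Slc25a1, the citrate carrier, had 1.96 ± 0.63 in GFP+RFP+ against GFP+RFP- cells (adjusted p = 0.142), with 2 of 4 and 2 of 5 samples detected.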

How the data were processed

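The 19 samples were hybridised to one-colour Agilent arrays. Per the labels' protocols, cDNA was amplified by a global PCR before Cy3 labelling. The intensity values deposited by the authors came from Agilent Feature Extraction (10.7.3.1, per the submitters' processing notes) and are unscaled between arrays. A deposited table of log2 values, with a normalization not given in the sources used, served as an alternative.

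The members, lists and tests were chosen with earlier results of these data known. Control spots and flagged spots were left out (3671 per array and 3296 over all arrays). Signals were taken as log2 and each array's 75th percentile over 6610 probes detected on all arrays was subtracted. A filter kept probes detected on 4 arrays or more, 28094 of 55681, and 16 of the 17 member probes. The probe with the highest mean stood for a gene. Of all probes, 27235 were named by accession through RefSeq (GRCm38.p6) and 28446 by the files, and coordinates are those of the files. A single limma model (limma 3.58.1, R 4.3.3, data.table (1.17.8)) was fitted to the 4 group means, with Benjamini-Hochberg adjustment over 20613 genes, and was tested on simulated data. Named genes were all members, up to 3 genes with the smallest p of each list, and the 5 most like Timm9. That last ranking took protein-coding genes only and left out symbols of the Rik, Gm, LOC or accession kind. Tables and figures used Python 3.11.15, pandas 2.3.3, numpy 2.4.6, scipy 1.17.1 and matplotlib 3.10.9. Precision is limited by the number of arrays. A marker of the B cell list is not reported here.

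Alternatives were the percentile over all probes, quantile normalization, normexp correction with an offset of 50, the deposited log2 values (called the series table), no filter, the mean of all probes for a gene, a filter for detection on every array, every probe on its own, replicate number as a block, slide and scan day as terms, fits within each slide, and leaving out each array. After the data were seen, the percent of probes detected as a term and leaving out arrays under 30% detected were added.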

Additional observations from a re-analysis of the deposited data

Results flagged for a closer look

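In 3 of 40 groups of 4 or 5 samples (10 genes by 4 groups) a single sample lay far from the others by Dixon's criterion, where chance gives about 1 in 20. Timm13 in GFP-RFP- replicate 3 had a log2 relative signal of -10.67, against -0.65 to 1.24 in the other 4 samples. Timm23 in GFP+RFP- replicate 4 had -10.04, against -1.94 to -0.38. Timm44 in GFP-RFP+ replicate 5 had -5.24, against -11.33 to -9.90, and it was the single GFP-RFP+ sample in which Timm44 was detected.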

How the results depend on the processing

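The other members called in GFP-RFP+ against GFP-RFP- cells numbered 1. They numbered 2 (Timm44 and Timm10, which was higher) with the percentile over all probes, quantile normalization and the series table. The count was 0 with no filter, with detection on all 19 arrays, with the replicate block and within slide 1. It was also 0 with percent detected as a term and without arrays under 30% detected. Slides 2 and 3 each held 1 array of 1 of these groups, so fits within them could not decide the count. Leaving out each array in turn gave 0 to 2. With GFP the count of 0 became 1 under normexp (Timm10, 1.81, adjusted p = 0.0292). In the other comparisons and the interaction it was 0 under every alternative run. By probe A_51_P421804, alone or in the mean of both probes, Timm9 stayed lower in RFP+ cells under every alternative that tested it, with differences of -7.24 to -2.29 without GFP and -7.71 to -2.50 with it, while its second probe on its own had 1.46 and 1.60. Detection on all 19 arrays leaves only 3 members tested (Timm10, Timm8b and Timm22), so its count of 0 says nothing on Timm44, and Timm9 was left out too.

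The genes called over all genes moved far more, from 351 to between 0 and 4845 without GFP and from 42 to between 0 and 5008 with it. With leaving out each array these were 85 to 1164 and 2 to 300. In the GFP comparisons and the interaction at most 20 were called. The percentile over all probes moved the median of all genes without GFP from -0.29 to 1.02 and the calls from 97 higher and 254 lower to 3509 and 518. Quantile normalization gave 2842 higher and 631 lower, normexp 4106 and 739 and the deposited log2 values 2926 and 674. With GFP, 18 higher and 24 lower became 0 and 10 with the percentile over all probes, 7 and 17 with quantile normalization and 4727 and 281 with normexp, and 5 and 17 in the series table.

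Signs turned for values not called. Among differences described above they did so within slide 3 for Timm17a (0.50), Romo1 (-0.074), Pam16 (3.05), Mtx2 (1.50) and Chchd4 (0.81), within slide 2 for Timm17b (-0.58), and for Timmdc1 with quantile normalization (-0.13), the series table (-0.13) and the mean of its probes (-1.75). Among members' RFP differences printed above without a size, signs turned most often for Timm44 with GFP (14 of 34 alternatives, -3.98 to 4.15), Timm22 (9 of 35 with GFP, 4 of 35 without) and Timm50 (8 and 4 of 34), and in 1 or 2 for Timm10 without GFP, Timm13, Timm23, Timm17a without GFP and, with GFP, Timm8a1. The cause was not tested.

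The sample titles repeat the replicate numbers across the groups, and the labels do not say whether a number marks a shared source. The main fit did not use these numbers. Of 27 same-numbered pairs, 0 correlated over 0.1 (r from -0.07 to 0.09), which cannot show that the samples were unpaired. With the replicate block Timm44 had -7.55 (adjusted p = 0.0524) and was not called. In the RFP comparisons 199 and 8 genes were then called, against 351 and 42 without the block. Signal near background limits all members but those detected on every array.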
